A study of Mus musculus with 12 samples.

Results

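The genes described are Dct, Tyrp1, Tyr, Mlana, Mitf and Myrip, 6 genes known from pigment cells, which were read on 10 of the 45281 probes of a mouse Illumina BeadChip. They were chosen by gene symbol, with lower signal in P21 tumors already known for the set, though Tyr was not lower there. The P21 difference between tumor and wild type is therefore given below as a description with no test. Dct had 2 probes, Tyrp1 had 3, Mitf had 2, and Tyr, Mlana and Myrip had 1 each. Only probes with signal above background (detection p-value below 0.05) on 3 or more of the 12 arrays were tested. By that filter 6 of the 10 probes and 4 of the 6 genes could be tested, and Tyr and Mlana could not. The whole table held 12379 genes that could be tested.

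The study compared tumors of the choroid plexus (CP), the epithelium that makes cerebrospinal fluid, with normal CP. Tumors were hindbrain CP tumors with the genotype Math1-cre;Rosa26-NICD1: Cre driven by Math1, a gene active in hindbrain progenitors, switches on the intracellular domain of Notch1. Controls were hindbrain CP of wild type mice. Both were taken on the day of birth (P0, day 0) and at P21 (day 21), all on a C57BL/6 background, a black-coated strain, with 4 groups of 3 samples. Tissue of several mice of 1 genotype went into a sample, and the labels do not give their number. P-values therefore measure the spread between these pools, which may be partly technical. Age and BeadChip cannot be told apart, since P0 samples filled 1 BeadChip and P21 samples another, each with tumor and wild-type CP.

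Between 19043 and 23632 probes were detected per array, and the median raw signal was 134 to 179.9. The number of arrays limits the precision. P0 wild-type sample 1 and P21 tumor sample 1 were the least like their own groups, with mean correlations of 0.946 and 0.949 to the other arrays of the group. P21 wild-type samples had 0.990 each. For most named calls that change without these 2 arrays, values are given beside the gene or in the closing section. Levels are log2 values of background-corrected, quantile-normalized bead signal, on which 1 unit is a doubling, and the 12 arrays share 1 estimate of the spread behind each SE.

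Melanocytes make pigment in melanosomes, organelles related to lysosomes. The transcription factor Mitf switches on the enzymes of melanin synthesis by binding short sequences with the core TCATGTG or TCACGTG. The enzymes form a family: Tyr (tyrosinase) carries out the first step, and Tyrp1 and Dct (dopachrome tautomerase) act further along. Mlana is a melanosome protein, and Myrip links the melanosome protein Rab27a to the motors Myo7a and Myo5a. Melanocytes also live in the meninges of pigmented mice, and the retinal pigment epithelium, a derivative of neuroepithelium, uses the same pigment genes.

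Because the members are grouped by their place in the pigment pathway, the starts of the 3 enzyme genes and of Myrip are shown here. Each window runs from 250 bases before to 50 bases after the annotated start (RefSeq, GRCm38.p6), 5′ to 3′ on the gene's own strand, and capitals mark matches to TCATGTG or TCACGTG on either strand. The windows are chr14:118052197-118052496, minus strand, for Dct, chr4:80833963-80834262, plus strand, for Tyrp1, chr7:87493463-87493762, minus strand, for Tyr, and chr9:120303823-120304122, plus strand, for Myrip.
Dct: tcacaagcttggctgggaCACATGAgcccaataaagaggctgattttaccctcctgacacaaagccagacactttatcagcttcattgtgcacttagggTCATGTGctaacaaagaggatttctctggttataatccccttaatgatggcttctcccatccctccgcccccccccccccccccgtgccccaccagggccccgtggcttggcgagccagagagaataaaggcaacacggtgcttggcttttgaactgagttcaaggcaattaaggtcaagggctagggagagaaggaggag
Tyrp1: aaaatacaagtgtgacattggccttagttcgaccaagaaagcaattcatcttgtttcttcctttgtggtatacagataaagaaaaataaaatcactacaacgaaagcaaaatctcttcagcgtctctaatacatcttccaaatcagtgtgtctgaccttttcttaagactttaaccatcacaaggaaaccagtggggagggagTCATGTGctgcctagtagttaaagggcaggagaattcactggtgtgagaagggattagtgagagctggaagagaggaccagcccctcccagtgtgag
Tyr: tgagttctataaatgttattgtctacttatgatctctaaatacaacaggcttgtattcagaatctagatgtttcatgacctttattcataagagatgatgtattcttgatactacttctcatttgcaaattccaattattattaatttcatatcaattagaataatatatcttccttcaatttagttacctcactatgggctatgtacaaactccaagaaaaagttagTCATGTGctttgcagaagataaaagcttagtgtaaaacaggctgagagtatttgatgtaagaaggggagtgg
Myrip: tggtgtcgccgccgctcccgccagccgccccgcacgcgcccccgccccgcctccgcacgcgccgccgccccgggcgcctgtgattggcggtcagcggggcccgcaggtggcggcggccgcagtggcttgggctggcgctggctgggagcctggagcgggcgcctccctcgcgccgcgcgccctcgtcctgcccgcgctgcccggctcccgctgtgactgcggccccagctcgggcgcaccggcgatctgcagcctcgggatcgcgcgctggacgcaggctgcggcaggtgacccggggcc
The match starts 232 and 151 bases before the start in Dct, 47 bases before it in Tyrp1 and 22 bases before it in Tyr. TCATGTG was found in 3.77% of 32851 such windows of the mouse genome and TCACGTG in 3.77%, with either in 7.4%. TCATGTG occurred at least 2 times, as in Dct, in 0.134%. The Myrip window held neither, nor did the 3 windows of Mitf. A window was at hand for 5 of the 6 members. A match describes the letters and is not evidence of binding.

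The label of a melanocyte set was checked against 10 melanocyte genes: Dct, Tyrp1, Tyr, Mlana, Mitf, Pmel, Slc45a2, Oca2, Gpr143 and Sox10. Tyr, Mlana and Gpr143, the last a melanosome receptor, were detected on none of the 12 arrays, P21 wild-type CP included. Tyr had raw signals of 104.4 to 142.3 and Mlana of 107.6 to 171.0, against 177.3 to 2628 for the brighter Dct probe. Log2 levels of Tyr were 4.70 to 4.88 in P21 wild-type CP and 4.82 to 5.02 in P21 tumors. Mlana was 5.46, 5.63 and 5.73 in P21 wild-type CP and 4.83, 4.67 and 5.38 in P21 tumors, all below the detection limit. In P21 wild-type CP Mlana missed that limit narrowly (detection p-values of 0.0556 to 0.0844), and its P21 difference without the filter, given as a description, was -0.65 ± 0.22 log2. That of Tyr was 0.10 ± 0.16. Without the detection filter, neither passed at P0 (Tyr -0.18 ± 0.16 log2, SE, limma adjusted p = 0.631, and Mlana -0.18 ± 0.22, adjusted p = 0.74).

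The transient receptor channel Trpm1, the melanocortin receptor Mc1r, the neural crest factor Pax3 and the neuregulin receptor Erbb3, all used by melanocytes, were also detected on no array. Pmel, which forms the fibrils of the melanosome, and Oca2, an ion transport protein of the melanosome membrane, were detected on all 12. Slc45a2, a transporter of the melanosome, was detected on 8 arrays and Sox10, a neural crest and glial factor, on 6. Dct and Myrip were detected on all 12 arrays, tumors included, Tyrp1 on 10 and Mitf on 7. The data therefore do not bear out the name of a melanocyte set that is lost: 2 of the 6 genes were not detected in any group, and Dct, Tyrp1, Mitf and Myrip were lower in P21 tumors with signal remaining. They are called by their gene names from here on.

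**Figure D1:**
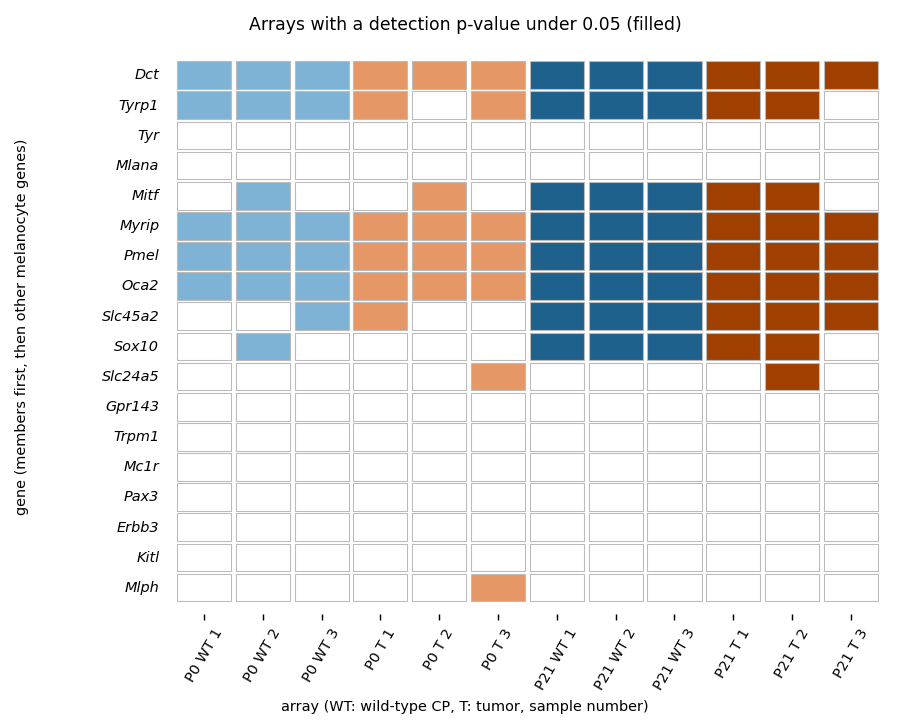
Detection of the 6 genes (top) and of 12 other genes used by melanocytes (below), with 1 column per array and a filled cell where the detection p-value of the gene's brightest probe was under 0.05. Dct, Myrip, Pmel and Oca2 are filled on all 12 arrays, and Tyr, Mlana, Gpr143, Trpm1, Mc1r, Pax3, Erbb3 and Kitl on none.

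Dct, the tautomerase that acts on the intermediate dopachrome, had log2 levels of 10.71, 10.79 and 11.60 in P21 wild-type CP and 8.07, 7.32 and 7.96 in P21 tumors. At P0 it was 7.34, 6.87 and 6.98 in wild-type CP and 6.24, 5.87 and 6.16 in tumors. Wild-type values were above tumor values at both ages with no overlap, and P21 wild-type CP stood above every other group. The tumor group at P21 overlapped with wild-type CP at P0, since its lowest value (7.32) lay under the highest of the latter (7.34). The P21 difference, which chose the gene, was -3.26 ± 0.28 log2 (SE, n = 3 per group), or 9.55-fold lower in tumors. Raw signals of the probe were 1668 to 2628 in P21 wild-type CP and 297.6 to 456.7 in P21 tumors.

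At P0 Dct was -0.98 ± 0.28 log2 in tumors against wild-type CP (limma, n = 3 per group, adjusted p = 0.0401, 95% interval -1.58 to -0.38), a 1.97-fold difference. The difference itself comes from P0 arrays, which the choice did not use. The SE and p-value of this call also draw on the spread of the P21 arrays, which chose the gene. That call is close to the threshold. It ended with no background correction (-0.45, adjusted p = 0.208), with the authors' deposited values (-0.50, 0.16) and in a fit of the 6 P0 arrays alone (0.0659). The call was also lost without P0 tumor sample 1, 2 or 3 (0.0677, 0.0902, 0.0958), without P0 wild-type sample 1 or 3 (0.117, 0.0834), without P21 tumor sample 3 (0.0519) and without P21 wild-type sample 1 or 2 (0.05004, 0.0551). Without both arrays that stood apart it was -0.84 (0.0948).

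A second Dct probe told the same at P21 and not at P0. It read 9.12, 9.54 and 10.32 in P21 wild-type CP and 6.64, 5.91 and 6.70 in P21 tumors, a difference of -3.24 ± 0.39 log2. At P0 it was detected on 1 of 3 arrays in each group, with levels of 4.88 to 6.14 in wild-type CP and 5.26 to 5.91 in tumors, which overlapped (0.19 ± 0.39 log2, limma adjusted p over all probes = 0.818).

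Tyrp1, the dihydroxyindole carboxylic acid oxidase of mouse melanin synthesis, was read on a single probe with signal. It had levels of 8.06, 6.96 and 6.63 in P0 wild-type CP and 6.39, 5.34 and 6.09 in P0 tumors. At P21 it was 6.93, 6.73 and 6.63 in wild-type CP and 5.64, 6.19 and 4.97 in tumors. Wild-type arrays lay above tumor arrays at both ages, and P0 tumor sample 2 and P21 tumor sample 3 were not above background. The P0 difference was -1.28 ± 0.40 log2 (2.42-fold, 95% interval -2.14 to -0.41) and did not pass (limma adjusted p = 0.0597). Fitted with the sample number as a block, it passed (adjusted p = 0.0259), and without P0 wild-type sample 1, the highest value, it was -0.86 (0.187). It passed without P0 wild-type sample 3 (-1.57, 0.046) or P21 tumor sample 3 (0.0498). With no background correction it was -0.62 (0.085) and with the authors' deposited values -0.67 (0.0745). The P21 difference, which chose the gene, was -1.17 ± 0.40 (2.25-fold). Of its other probes, 1 was detected on 2 arrays, both P0 wild-type CP, and the other on none, so they give no second reading.

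Mitf, the regulator of the pigment program, which mast cells, macrophages and the retinal pigment epithelium also use, lay near the detection limit. Its brighter probe had levels of 6.47, 6.98 and 6.75 in P21 wild-type CP, where it was detected on every array, and 6.11, 5.93 and 5.54 in P21 tumors, where 2 of 3 arrays detected it. These groups did not overlap, and the difference, which chose the gene, was -0.87 ± 0.39 log2 (1.83-fold). At P0 it was detected on 1 of 3 arrays in each group, sample 2 in both, with levels of 5.38, 6.62 and 5.25 in wild-type CP and 4.83, 6.16 and 5.31 in tumors. The P0 groups overlapped, and the difference of -0.31 ± 0.39 (95% interval -1.15 to 0.53) did not pass (limma adjusted p = 0.676). It was 0.12 without P0 wild-type sample 2. The dimmer probe differed by -0.32 ± 0.20 at P21 and by -0.07 ± 0.20 at P0 (limma adjusted p over all probes = 0.882).

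Myrip, the myosin and Rab27 binding protein, had the clearest difference at P0. Its raw signals were 2523, 1941 and 2270 in P0 wild-type CP, a log2 level of 11.17 ± 0.25 (SD, n = 3) that reached 11.46 in sample 1. Log2 levels in P0 tumors were 9.26, 9.52 and 9.22. The groups did not overlap, and the array that stood apart in its group, P0 wild-type sample 1, was the highest. Myrip fell by 1.84 ± 0.31 log2 at P0 (3.57-fold, limma, n = 3 per group, adjusted p = 0.0026, 95% interval -2.51 to -1.17). The call held under every alternative listed in the closing section, with differences of -2.05 to -1.65 and adjusted p-values of 0.000528 to 0.0156. It was the 35th largest fall of 12379 genes. At P21 levels were 11.97, 12.10 and 11.91 in wild-type CP and 9.16, 8.31 and 9.82 in tumors, a difference of -2.90 ± 0.31 (7.45-fold) that chose the gene. P21 tumors varied more among themselves (SD 0.76) than P21 wild-type samples (SD 0.097).

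**Figure D2:**
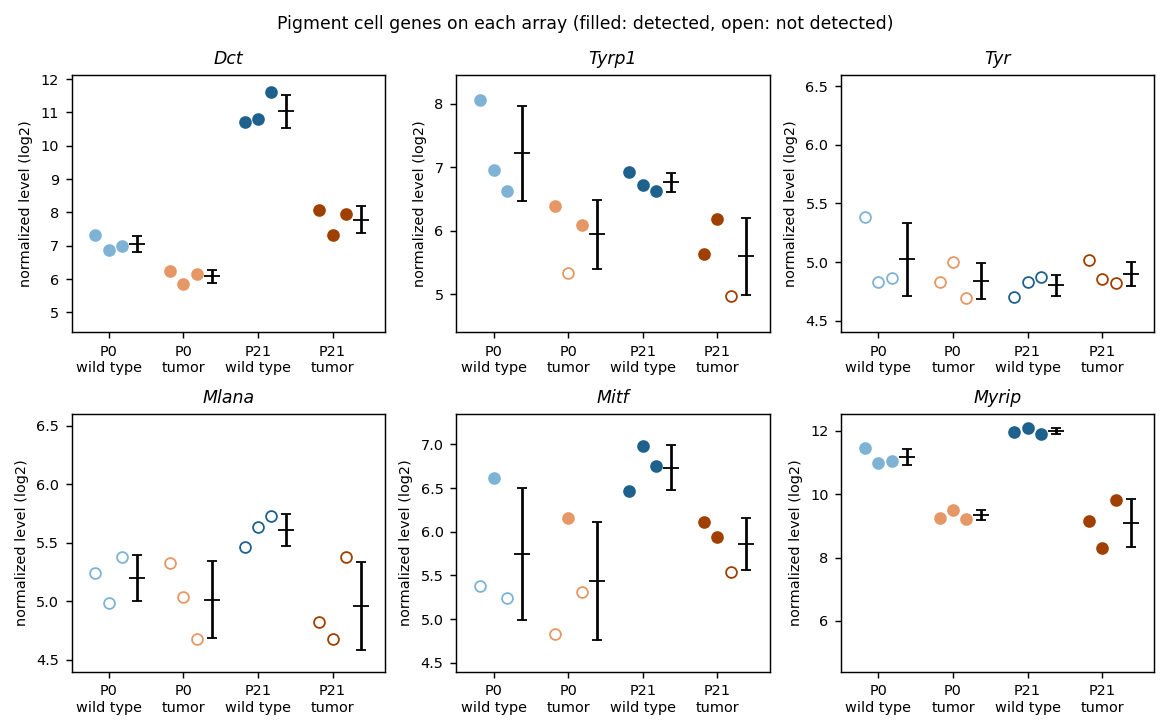
Normalized log2 level of the brightest probe of each gene on each of the 12 arrays, by group, with filled points for detected and open points for undetected signals, and the group mean with its SD beside them (n = 3). Dct and Myrip are detected throughout and highest in P21 wild-type CP, and Tyr and Mlana are open in all groups.

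Of the 4 genes tested at P0, Dct and Myrip passed and were lower in tumors, which 6.29% of all 12379 genes did (11.3% in either direction). Dct, Tyrp1 and Myrip had groups that did not overlap, as 14.4% of all genes did in the lower direction (24.8% in either). Mitf passed the detection filter with 2 P0 and 5 P21 arrays, and no weight is put on the count. In the P21 comparison 7.43% of genes passed as lower and 23.9% had lower groups without overlap (17.9% and 45% in either direction). That comparison chose the members, and nothing is read from it. In bulk tissue, fewer cells of a kind and less RNA per cell cannot be told apart.

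**Figure D3:**
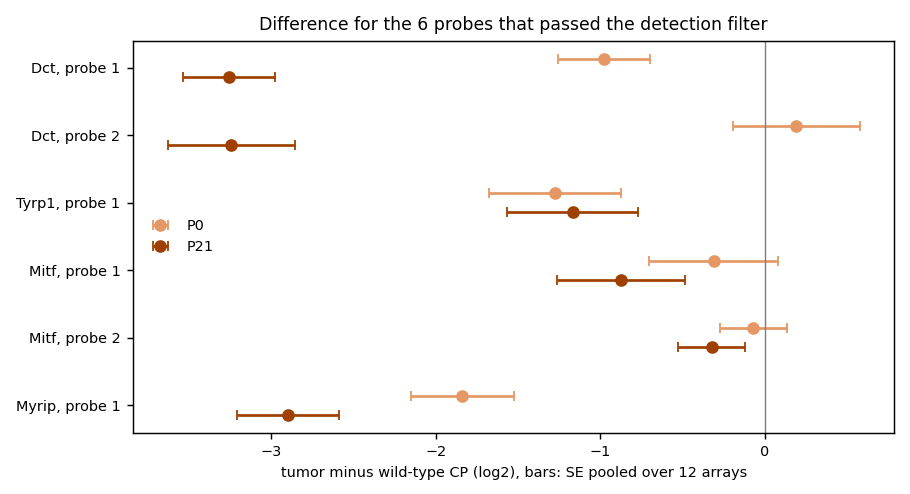
Tumor minus wild-type CP on the log2 scale for the 6 probes that passed the detection filter, at P0 (light) and P21 (dark), with SE bars (n = 3 per group, spread pooled over 12 arrays). Both Dct probes lie near -3.2 to -3.3 at P21 and apart at P0, and Myrip lies furthest left at P0.

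The genes did not share a course with age. In wild-type CP the brighter Dct probe was 3.97 log2 units higher at P21 than at P0 (15.7-fold) and the second 4.30, while in tumors they were 1.69 and 0.87 higher. Myrip was 0.82 higher at P21 in wild-type CP and 0.24 lower in tumors (a change of -0.24), within the spread of the P21 tumors (SD 0.76). Mitf was 0.99 higher in wild-type CP and 0.42 higher in tumors, and Tyrp1 changed by -0.46 and -0.35, less than the SD of 0.75 among P0 wild-type samples. These age differences share the P21 arrays that chose the genes and were not tested. On the brighter Dct probe the P21 tumors lay above the P0 tumors without overlap, and on the second probe the groups overlapped (5.91 to 6.70 against 5.26 to 5.91).

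The next genes are other parts of the pigment pathway and markers of cell types that share genes with melanocytes, in 10 lists of 116 genes. Of these 91 were tested, 6 had no probe of that name, 13 had probes that were detected on no array, and 6 were detected on fewer than 3 arrays. At P0, 14 passed as lower and 9 as higher, and at P21 13 and 20. Over all 12379 genes, 6.29% passed as lower and 5% as higher at P0, and 7.43% and 10.5% at P21. The median difference of all genes was -0.06 log2 at P0 and -0.05 at P21.

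Of 12 further genes of pigment synthesis and the melanosome, 8 were tested. At P0, 2 fell and 1 rose (median -0.34). Pmel was 8.79, 9.14 and 9.17 in P0 wild-type CP and 7.71, 8.28 and 7.72 in P0 tumors, with no overlap, and fell by 1.13 ± 0.22 (limma adjusted p = 0.00628). A second Pmel probe gave -0.16 and did not pass (adjusted p over all probes = 0.837). Oca2 was 12.36, 11.97 and 12.18 in P0 wild-type CP and 10.74, 11.77 and 10.74 in tumors, with tumor sample 2 close to the controls. It fell by 1.08 ± 0.26 (adjusted p = 0.0203), a call that ended without P0 tumor sample 1 or 3 (0.0769, 0.0917), P0 wild-type sample 1 or 3 (0.0608, 0.0575), and with only the 6 P0 arrays fitted (0.106). Without both arrays that stood apart it was -0.99 (0.0563). The gene that rose was Slc7a11, the cystine transporter whose product feeds red pigment and glutathione (1.10 ± 0.23, 0.00972). It did not pass with median scaling (0.0737) or with only the 6 arrays (0.0767), and 1 of its 5 probes pointed down (-0.73 ± 0.25, adjusted p over all probes = 0.0859).

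At P21 2 genes of that list fell and 1 rose (median -0.72). Pmel was 7.49, 7.70 and 7.83 in wild-type CP and 6.49, 6.98 and 6.85 in tumors and fell by 0.90 ± 0.22 (limma adjusted p = 0.0124), a call that ended with median scaling (0.0519) or without P21 wild-type sample 3 (0.0558). Mcoln3, a cation channel of endosomes and lysosomes, fell by 1.96 ± 0.30 (0.000638), or by 1.06 with no background correction. At P0 it was -0.91 ± 0.30 (0.0743), which passed with the sample number as a block (0.0388) or without P0 tumor sample 2 (0.0406). Slc7a11 rose by 3.37 ± 0.23 (1.4e-06), with levels of 12.85 to 13.07 in tumors against 9.53 to 9.61 in wild-type CP, while the probe that pointed down at P0 gave -0.05 ± 0.25. Oca2 was 11.05 to 11.45 in wild-type CP and 10.40 to 10.50 in tumors, without overlap, but did not pass (-0.76 ± 0.26, 0.0688). Slc45a2 did not pass at either age (-0.09 ± 0.22, 0.849, and -0.43 ± 0.22, 0.216). Summed signal of the list was 24100 to 33607 in P21 tumors and 35949 to 36555 in P21 wild-type CP. Most of that sum was Cd63, the brightest gene of the list, which did not pass. Its levels were 14.84 to 14.91 in P21 wild-type CP and 13.77 to 14.43 in P21 tumors. The sum is therefore no reading of Pmel or Oca2.

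Among 24 genes of melanosome transport and lysosome-related organelles, 22 were tested. At P0 1 rose and 1 fell (median -0.24), and at P21 3 rose and 1 fell (median -0.12). The P0 rise, Sytl2, was lost in 11 of the 12 fits without 1 array (limma adjusted p up to 0.119). The P0 fall, Hps5, was lost in 8 of them (up to 0.132). Both were lost with only the 6 P0 arrays (0.223, 0.145). The P21 rise of Rab27b was lost in 6 such fits (up to 0.127) and with no background correction (0.0834). The partners of Myrip were measured too. Rab27a, the small GTPase on the melanosome, did not pass at P0 (-0.40 ± 0.47, limma adjusted p = 0.655) or P21 (-0.03 ± 0.47, 0.978). The motor Myo7a was 11.77, 12.12 and 12.18 in P21 wild-type CP and 10.36, 10.74 and 10.38 in P21 tumors and fell by 1.53 ± 0.34 (0.00726). At P0 it did not pass (-0.79 ± 0.34, 0.164), but without P0 wild-type sample 1 it did (-1.26, 0.00565): that array read 10.26, within the range of P0 tumors (10.16 to 10.72), and the other wild-type arrays 11.61 and 11.74. Myo5a did not pass at either age (0.13 ± 0.35, 0.859, and 0.04 ± 0.35, 0.954). Rab32, a GTPase that delivers cargo to melanosomes, rose at P21 by 1.24 ± 0.19 (0.000617). Mlph, which links Rab27a to Myo5a in melanocytes, was detected on 1 array.

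Of 14 lineage signals and factors of melanocytes, 9 were tested, with 3 rising and 1 falling at each age (medians -0.14 at P0 and -0.02 at P21, or -0.10 and 0 with genes below background in a group at their bound). Kit, the receptor that melanocytes and mast cells need, was higher in tumors, opposite to the members. At P21 its levels were 13.54, 13.25 and 13.84 in tumors and 10.73, 11.17 and 10.68 in wild-type CP, a rise of 2.68 ± 0.23 (limma adjusted p = 8.75e-06). At P0 it rose by 0.90 ± 0.23 (0.0283), but not with the sample number as a block (0.0651), with median scaling (0.331), with only the 6 arrays (0.103), or without P0 tumor sample 2 or 3 or P0 wild-type sample 2 or 3 (0.0655, 0.0786, 0.0657, 0.0907). The cell survival factor Bcl2 rose at both ages (1.00 ± 0.16, 0.00213, and 1.15 ± 0.16, 0.000366). Its other tested probes also pointed up, but several did not pass. The weakest gave 0.33 at P0 (adjusted p over all probes = 0.322) and 0.23 at P21 (0.779). Lef1, a partner of beta-catenin, fell at P21 by 2.17 ± 0.39 (0.002), or by 1.01 with no background correction (0.0101). The gene that fell at P0 was the endothelin receptor Ednrb (-0.92). It was 14.34, 14.57 and 14.53 in P0 wild-type CP and 13.28, 13.96 and 13.43 in P0 tumors. Its call was lost in 9 of the 12 fits without 1 array (adjusted p up to 0.136) and with only the 6 P0 arrays (0.0929). Kitl, the ligand of Kit, was detected on no array.

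Sox10 depended on 1 array. In P21 tumors it was 9.76, 5.65 and 5.31, against 7.16, 6.75 and 7.01 in P21 wild-type CP, and it did not pass (-0.07 ± 0.84, limma adjusted p = 0.971). Without P21 tumor sample 1 it was -1.50 and passed (0.00119). The same array was high for the myelin gene Mog (10.59, against 5.71 and 5.43 in the other tumors). The summed signal of the 6 tested genes of the Schwann cell and oligodendrocyte list was 11356 on it, against 2884 and 3241 in the other P21 tumors and 3192 to 3586 in P21 wild-type CP. No gene of that list passed at either age (medians -0.23, or -0.10 with bounds, and -0.01). Without P21 tumor sample 1 the P21 difference was -3.40 for Dct, -1.19 for Tyrp1, -1.0 for Mitf and -2.93 for Myrip, close to the values with it.

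**Figure D4:**
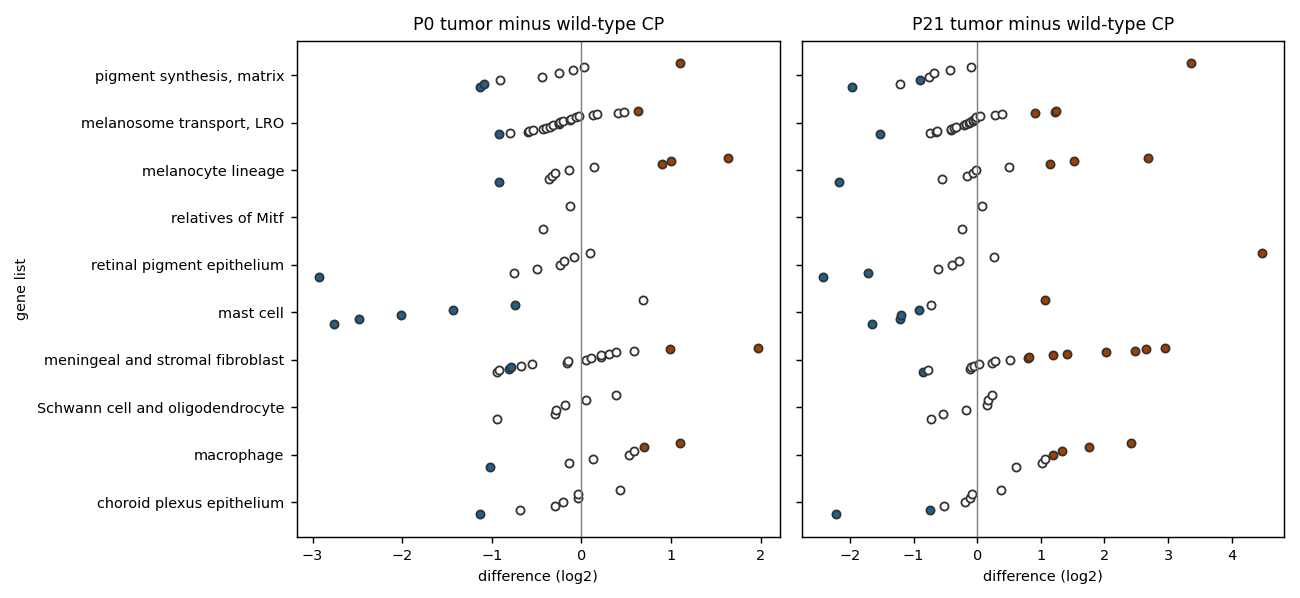
Tumor minus wild-type CP on the log2 scale for each tested gene of the 10 lists (LRO, lysosome-related organelles), at P0 (left) and P21 (right), with filled points for a limma adjusted p-value under 0.05, blue lower and brown higher in tumors. The mast cell list lies mostly left at both ages (5 of 6 lower at P0, 4 of 6 at P21), and the macrophage list mostly right at P21 (4 of 7 higher).

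Mitf has 3 close relatives. Tfe3 and Tfeb, regulators of lysosome genes, did not pass at either age (medians -0.28 at P0 and -0.08 at P21, the latter -0.12 with bounds), and Tfec was detected on no array.

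Of 9 genes of the retinal pigment epithelium, 7 were tested. At P0 1 fell (median -0.24), Rlbp1, which carries visual retinoids, by 2.93 ± 0.42 (limma adjusted p = 0.000787), or by 2.19 with no background correction. At P21 2 fell and 1 rose (median -0.40). Rpe65, the retinoid isomerase of that epithelium, was 9.80, 9.88 and 10.50 in P21 tumors and 4.89, 5.49 and 6.35 in P21 wild-type CP, where 1 of 3 arrays detected it, and rose by 4.48 ± 0.38 (6.1e-06). Since the wild-type group lay mostly below background, that size depends on background correction, and without it the rise was 2.94 (2.27e-06). The opsin gene Rrh fell by 2.42 ± 0.31 (0.000169), or by 1.37 with no background correction. Rlbp1 fell by 1.71 ± 0.42 (0.0122), a call that ended without P21 tumor sample 2 or 3 or P21 wild-type sample 1 (0.0578, 0.0514, 0.0585) and was -0.81 with no background correction (0.0352). Summed signal of the list was 9213 to 11473 in P21 tumors and 10695 to 14718 in P21 wild-type CP, and Lrat and Rgr were detected on no array.

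Mast cells, which use Mitf and Kit, were read by 6 tested genes of 9. Of these 5 fell at P0 (median -1.72, or -1.46 with bounds), and at P21 4 fell and 1 rose (median -1.05, or -0.63 with bounds). Some P0 calls were weak. That of Hdc was lost in 9 of the 12 fits without 1 array (limma adjusted p up to 0.153) and with only the 6 P0 arrays (0.201). The Mcpt4 call was lost in 4 of those fits (up to 0.107) and with only the 6 P0 arrays (0.097). It was also lost without both arrays that stood apart (0.0845). The protease Cpa3 was 10.24, 9.03 and 10.38 in P0 wild-type CP and 6.63, 7.44 and 7.31 in P0 tumors, a fall of 2.76 ± 0.36 (limma adjusted p = 0.000437), or -2.08 with no background correction. At P21 it fell by 1.65 ± 0.36 (0.00632), which did not pass with no background correction (-0.71, 0.0931) or the authors' deposited values (-0.79, 0.059). Another of its 3 probes did not pass at P0 (-1.26, limma adjusted p over all probes = 0.0754) or P21 (-0.28, 0.727). The remaining Cpa3 probe passed at both ages (-3.06, 0.00042, and -1.46, 0.0202). The tryptase Tpsb2 was below background in all P0 tumors and at least 3.92-fold lower there on the background-corrected scale (adjusted p = 0.000304). That bound holds for this scale alone, and with the authors' deposited values the difference was -1.29 log2 (0.00149). The P21 falls of Tpsb2 and Cma1 did not pass with no background correction (0.0929, 0.181) or the authors' deposited values (0.0787, 0.136). That of Hdc passed with both (0.00552, 0.00512). Summed signal of the list was 5674 to 8133 in P0 tumors against 10214 to 13437 in P0 wild-type CP, and 5585 to 6803 against 9164 to 9490 at P21. Hdc, the brightest gene of the list, made up most of that sum. Ms4a2 and Tpsab1 were detected on no array. The part of mast cells in the lower Mitf signal was not tested.

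Of 17 genes of meningeal and stromal fibroblasts, all tested, 2 rose and 2 fell at P0 (median 0.06) and 7 rose and 1 fell at P21 (median 0.51). Col1a2, a chain of type I collagen, rose at P21 by 2.95 ± 0.24 (limma adjusted p = 5.04e-06) and Aldh1a2, a retinoic acid synthesis enzyme of the meninges, by 2.02 ± 0.26 (0.000162), or by 1.13 with no background correction. Summed signal was 147849 to 164504 in P21 tumors and 140775 to 150073 in P21 wild-type CP, which overlapped. Of 8 macrophage genes, 7 were tested, with 2 rising and 1 falling at P0 (median 0.53) and 4 rising at P21 (median 1.2). Their summed signal was 3302 to 5339 in P21 tumors and 1617 to 1662 in P21 wild-type CP.

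Of 10 genes of the CP epithelium, 7 were tested, and 1 fell at P0 (median -0.20) and 2 at P21 (median -0.20). The water channel Aqp1 fell by 2.22 ± 0.29 at P21 (limma adjusted p = 0.000183) and Folr1, the folate receptor, by 0.74 ± 0.22 (0.0362), the latter lost without P21 tumor sample 1 or 2 or any of the 3 P21 wild-type samples (0.0761 to 0.122). Ttr, transthyretin, did not pass at P0 (-0.04 ± 0.15, 0.902) or P21 (-0.11 ± 0.15, 0.671), near the top of the scale, but passed at P21 with median scaling (-0.82, 0.0149). Summed signal of the list was 150935 to 198563 in P0 tumors against 176224 to 244538 in P0 wild-type CP, and 178742 to 187750 against 235067 to 239786 at P21. The P21 groups did not overlap, and the part of this list in the members' lower signal was not tested.

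The genes whose levels followed the members most closely were found by Pearson correlation, over the 12 arrays, with the mean of the 4 tested members after each was centred. They were Cish (r = 0.980), a feedback inhibitor of cytokine signaling, the serine protease Tmprss11a (0.980), the tight junction protein gene Marveld3 (0.976), the neutral ceramidase Asah2 (0.974), the ascorbate-dependent reductase Cyb561 (0.969), the intracellular cation channel Tmem38a (0.967), Fitm2, which acts in lipid droplet formation (0.963), and Rassf8 (0.962). All 8 were detected on all 12 arrays. Tmprss11a had means of 10.06 ± 0.07 in P21 wild-type CP and 6.77 ± 0.44 in P21 tumors (SD, n = 3), and 7.50 ± 0.53 and 6.10 ± 0.42 at P0, an order of groups like that of Dct but for its neighbours P0 wild type and P21 tumor. Cish was 12.47 ± 0.13, 10.73 ± 0.24, 11.11 ± 0.07 and 10.01 ± 0.05 in the same order. Of the members themselves, Dct and Myrip correlated with the mean at 0.906 and 0.905, Mitf at 0.71 and Tyrp1 at 0.555. The arrays share age, genotype and BeadChip, so these values describe likeness only.

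**Figure D5:**
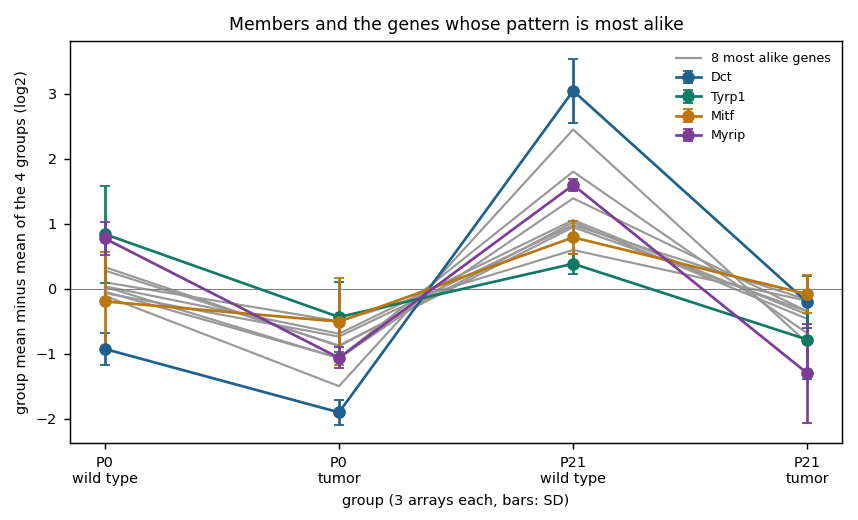
Group means of the 4 tested members (coloured, with SD bars, n = 3) and of the 8 genes whose pattern is most alike (grey), each minus the mean of its 4 groups, on the log2 scale. Dct has the widest range and peaks in P21 wild-type CP, and Tyrp1 alone among the members peaks in P0 wild-type CP.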

How the data were processed

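Per the labels' protocols, total RNA was extracted with Trizol, column-purified with DNase I and labelled with biotin as cRNA. Per the file headers, the authors deposited a scanner table with an average bead signal, a linear intensity that is not normalized, and a detection p-value per probe and array (936 control values behind each p-value). A second deposited table holds normalized intensity values of the same arrays, with a method not given in the sources used here, linear, with column medians of 153.0 to 153.1. It kept each array's rank order (Spearman 1) and was used, as log2, only as an alternative. Columns were mapped through the labels, and no 2 arrays held identical values.

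With limma 3.58.1 in R 4.3.3, background was corrected by normexp using controls inferred from detection p-values (offset 16), followed by quantile normalization and log2. Of 24000 probes detected (p under 0.05) on at least 3 arrays, 20021 had a single gene symbol. Platform symbols (34885 probes with 1 symbol, 18 with several, 10378 not listed) were updated by Entrez ID for 34807 probes and by accession for 11 through RefSeq of GRCm38.p6, and 67 kept theirs. The brightest probe stood for a gene. All 12 arrays were fitted with 1 mean per group (lmFit, eBayes, with 8 residual degrees of freedom and 4.19 from the prior), p-values were adjusted by Benjamini-Hochberg across 12379 genes, and the threshold was 0.05. The fit was tested on simulated data with changes put into P0 tumors. It called 46% of 100 changes of 1 log2 unit and 84% of 100 changes of 2 units, with 3 false calls. A true change of 1 unit can therefore fail to pass. Only these genes were changed, and the noise was independent between arrays. In the real data 11.3% of genes passed at P0, so these shares need not hold there. A fold "at least" sets the bright group's mean against the dim group's mean of, per array, the dim probe's own signal or the lowest signal of a detected probe, whichever is higher. Summed signal is the sum of unlogged normalized values, so the brightest genes of a list weigh most.

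Members and lists were chosen with earlier results of these data known. Named genes are the members, 14 set genes, up to 6 passing genes per list and comparison, and the 8 most alike genes. Deviations from group means of P0 tumor and wild-type samples with the same number correlated at 0.424, 0.431 and 0.104. All were over 0.1, so the number was taken to pair P0 samples, from the data alone. P0 samples with different numbers correlated at -0.409 to 0.0966, so the third pair barely stood out. P21 pairs did not exceed 0.1 (-0.08, -0.03 and -0.14). The p-values given first are from the fit without pairing. The block's value is given beside Tyrp1, Kit and Mcoln3, whose P0 calls it changed. The block also ended the P0 calls of the listed genes Slc13a4 (limma adjusted p = 0.0551), Mrc1 (0.0834) and Sytl2 (0.0844).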

Additional observations from a re-analysis of the deposited data

Results flagged for a closer look

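Ctss, a protease gene of the macrophage list, differed with opposite signs at the 2 ages: each tumor array lay below each wild-type array at P0 (-1.02 log2) and above at P21 (0.61). Tumor levels at P0 ran from 6.32 to 6.72, against 7.37 to 7.68 for wild-type CP, and at P21 from 6.68 to 7.32 against 5.89 to 6.67, so the P21 groups barely separated. The P21 difference did not pass (limma adjusted p = 0.114, and 0.0957 to 0.395 without single arrays) except with median scaling (0.0296). The P0 difference passed (0.0186), but not with the 6 P0 arrays alone (0.0501), without P0 tumor sample 1 (0.0538), P0 wild-type sample 1 (0.053) or 3 (0.0551), or without both arrays that stood apart (0.0508). The difference between the ages was not tested.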

How the results depend on the processing

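Of the 4 tested genes, 2 passed at P0, and 1 (Myrip) passed with no background correction, with the authors' deposited values and with only the 6 P0 arrays fitted. With the replicate number as a block 3 passed, and leaving out 1 array gave 1 to 2. Over all genes, 1398 passed at P0 (619 higher, 779 lower), 551 with only the 6 P0 arrays, 1404 with the replicate block, and 764 to 1740 without 1 array, lowest without P0 tumor sample 3. With median scaling the P0 split was 533 higher and 1154 lower. At P21 2222 passed, 2399 with the block and 1479 to 2639 without 1 array, lowest without P21 tumor sample 2 or P21 wild-type sample 2. Of the listed genes, 23 passed at P0, 7 with only the 6 arrays, 20 with the block, and 11 to 22 without 1 array, under 15 without P0 tumor sample 1 (12) or 3 (11) or P0 wild-type sample 3 (11). Without both arrays that stood apart, an alternative chosen after seeing the data, 1 member passed at P0. Of the listed genes, leaving out both also ended the P0 calls of Mcpt4 (limma adjusted p = 0.0845), Col1a2 (0.0554), Slc13a4 (0.06) and Mrc1 (0.0651). The P21 call of Folr1 ended too (0.0579), while Gata2 (0.0124) and Folr1 (0.0236) then passed at P0. With no background correction, genes near background had smaller differences, as given beside Tyrp1, Rpe65, Rrh, Rlbp1, Lef1, Mcoln3, Cpa3 and Aldh1a2. The P21 differences of Dct, Tyrp1 and Mitf shrank to -2.75, -0.50 and -0.37 with no background correction and to -2.68, -0.56 and -0.42 with the authors' values. The cause was not tested. No P21 difference of a member changed sign. Tyrp1 and Mitf could not be tested among probes detected on all 12 arrays. Signals near background limit Tyrp1 and Mitf, and Tyr and Mlana gave none.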
